A study of Mus musculus with 45 samples.

Results

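Total RNA of the 2F labelling experiment was set against total RNA of untreated NIH-3T3 cells (mouse fibroblasts of embryonic origin, kept as a line) to describe which transcripts were higher and which were lower after 60 min. The members were the 6 arrays whose titles name these groups, 3 each, of 45 arrays in the series. Cells grew in DMEM with 5% newborn calf serum (NCS) and stood at about 80% confluency when an experiment began. The 2F cells then received fresh, prewarmed medium with 200 µM 4-thiouridine (4sU), a uridine analogue that enters new RNA, for 60 min, and the untreated cells were harvested before actinomycin D. The titles also call the 2F arrays mock, and neither mock nor 2F is explained there. Fresh medium, 4sU, 60 min of time and the separate experiment all differ between the groups and cannot be told apart. Total RNA was not split into new and old RNA on these 6 arrays. The labels do not say that replicates came from separate cultures, so p-values here rest on array-to-array spread that can be technical alone.

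When fibroblasts receive fresh growth medium, serum factors act through MAP kinases and serum response factor (SRF) to switch on immediate-early genes, whose transcripts appear within minutes and mostly decay quickly. Many of them encode transcription factors (Fos, Jun, Egr), feedback inhibitors of the same kinases (dual-specificity phosphatases, Sprouty proteins) or secreted signals. The NF-kappaB pathway induces chemokines and its own inhibitors, BMP signalling through SMADs induces the Id genes, and zinc induces metallothioneins through the factor MTF1.

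Values are GCRMA intensities, a background-corrected and normalised array brightness, and were compared on the log2 scale with limma. A probe set or gene was called higher or lower where limma's p, adjusted by Benjamini-Hochberg over all probe sets, was below 0.05 and the change was 2-fold or more, and is said to rise or fall only then. Each gene was read from its brightest probe set. A probe set with a mean log2 under 5 (an intensity of 32) over the arrays compared was not tested. Among 8386 genes tested, 221 (2.64%) were higher and 40 (0.477%) lower in 2F total RNA. Of the 221, 35 had a mean under that limit in untreated cells and were tested only because 2F was brighter. Such genes, Lif, Il6 and Slc30a1 among them, also count in the shares and medians of the lists below. Over all 15560 probe sets tested, 498 (3.2%) were higher and 146 (0.938%) lower, so 77.3% of calls were increases. With each array's median subtracted, 63.9% of calls were increases, and the median change of all probe sets moved from 0.034 to -0.116. Many smaller differences passed the test too, since adjusted p alone called 1165 genes (13.9%) and 2615 probe sets (16.8%) higher and 912 genes (10.9%) and 1663 probe sets (10.7%) lower.

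The 6 arrays were even in quality. Pearson's r across probe sets was 0.996 to 0.997 among 2F arrays, 0.986 to 0.991 among untreated arrays and 0.963 to 0.967 between the groups. The median SD across replicates was 0.0758 log2 in 2F and 0.153 in untreated cells. Total RNA arrays of cells labelled for 30 min fell into sets of close arrays, with r of 0.988 to 0.995 within and 0.919 to 0.969 between sets. Each group of 3 here was about as close as such a set, so the p-values here can be too small. The 3′ minus 5′ signal of Actb, a sign of RNA integrity, was 0.678 to 0.787 log2 on all 6 arrays. Of 14 fibroblast markers listed, 13 had deposited values under 1 gene symbol, among them Col1a1, Vim and Thy1. All 13 were above an intensity of 32 on every array, with summed levels of 78210 to 84550 in untreated and 82050 to 85710 in 2F cells. Of 12 markers listed for each, 5 epithelial, 5 leukocyte and 4 endothelial or muscle markers had such values. These were below 32 on all 6 arrays, with summed levels of at most 38.49 per list and array. The other markers of these lists were not examined. In a bulk sample, fewer cells of a type and less RNA per cell cannot be told apart.

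Immediate-early transcription factors were among the largest increases. Of the 28 immediate-early transcription factors tested (33 listed), 19 were higher, 1 was lower and 8 were not called, with a median change of 1.23 log2 against 0.01 for all genes tested. With array medians subtracted, 14 of the 28 were higher. This list, like the others below, was chosen with earlier results of these data known, which can favour such shares. Nr4a1, an orphan nuclear receptor, read 174, 129 and 149 in untreated cells and 3357, 3206 and 3558 in 2F cells. That is a 22.5-fold rise (log2 change 4.49 ± 0.12 (SE, n = 3 arrays each), limma adjusted p = 3.5e-06). No 2F array came near the untreated ones. Such a separation is not rare here, as the groups did not overlap for 45.5% of all genes and 46.8% of all probe sets tested.

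The Egr zinc finger factors rose together. Egr2 read 54.8, 93.1 and 79.7 in untreated cells and 1233, 1419 and 1463 in 2F cells (log2 change 4.21 ± 0.19, limma adjusted p = 1.4e-05). Egr3 read 208, 283 and 212 against 3242, 3294 and 3093 (3.79 ± 0.13, adjusted p = 6.4e-06). Egr1 read 1498, 1417 and 1234 in untreated cells and 4896, 4659 and 5235 (1.84 ± 0.10, adjusted p = 3.2e-05). For each of the 3 genes the groups did not overlap.

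The AP-1 factors Fos and Junb, which pair to bind DNA, also rose. Fos read 52.1, 59.8 and 55.9 in untreated cells and 586, 572 and 762 in 2F cells (log2 change 3.51 ± 0.13, limma adjusted p = 7.1e-06). Junb went from 74.9, 60.3 and 84.2 to 854, 746 and 909 (3.52 ± 0.14, adjusted p = 9e-06). Fosl1 (1.79), Jun (1.11), Atf3 (2.14), Klf2 (2.17), Klf10 (2.08), Csrnp1 (2.64) and Srf itself (1.08) were further called members, each given as a log2 change. Myc rose by 1.13 ± 0.13 (limma adjusted p = 0.001), a change of 0.99 and no longer called without untreated replicate 1 and of 0.98 with array medians subtracted. The single member that fell was Cebpd, a C/EBP factor of acute-phase responses, from 2161, 2072 and 2019 to 939, 1032 and 1104 (-1.03 ± 0.09, limma adjusted p = 0.00027). Without 2F replicate 1 its change was -0.97, under the 2-fold line.

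**Figure D1:**
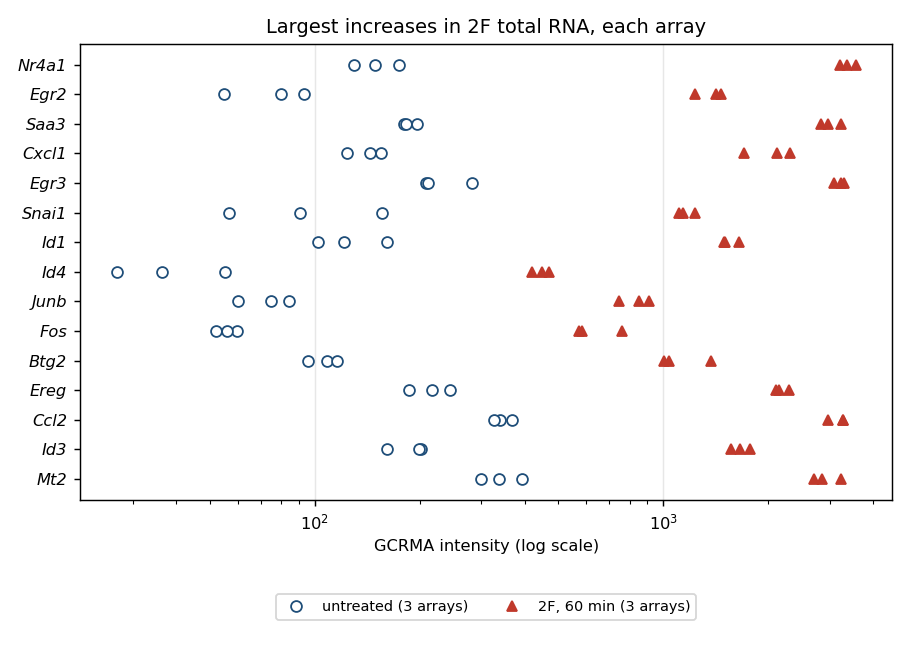
GCRMA intensity (log axis) of the 15 largest increases in each of the 3 untreated arrays (open circles) and the 3 arrays of 2F total RNA (triangles), ordered by log2 change from Nr4a1 (4.49) to Mt2 (3.10). The groups do not overlap for any of the 15 genes, which the rule for naming them required. The rule also asked for a mean log2 of at least 7, so dimmer genes are left out, such as Lif (4.58), Il6 (4.37) and Slc30a1 (4.18).

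Promoters of 6 of the risen genes are shown with the motif for which their pathway is known, as RefSeq windows of GRCm38.p6 from 250 bases before to 50 after a gene start. Windows of the first pair carry the CArG box, the site of SRF, in capitals. The window of Egr2 (early growth response factor, 1 of its 5 windows) is chr10:67537619-67537918, plus strand, and that of Dusp5 (an ERK phosphatase) is chr19:53528895-53529194, plus strand. Dusp5 holds 2 CArG boxes side by side.
Egr2: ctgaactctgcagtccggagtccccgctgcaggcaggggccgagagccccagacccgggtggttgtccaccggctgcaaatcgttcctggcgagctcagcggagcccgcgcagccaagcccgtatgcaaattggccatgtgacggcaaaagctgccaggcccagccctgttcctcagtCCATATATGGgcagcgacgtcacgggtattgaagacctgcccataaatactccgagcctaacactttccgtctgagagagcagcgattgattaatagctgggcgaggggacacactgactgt
Dusp5: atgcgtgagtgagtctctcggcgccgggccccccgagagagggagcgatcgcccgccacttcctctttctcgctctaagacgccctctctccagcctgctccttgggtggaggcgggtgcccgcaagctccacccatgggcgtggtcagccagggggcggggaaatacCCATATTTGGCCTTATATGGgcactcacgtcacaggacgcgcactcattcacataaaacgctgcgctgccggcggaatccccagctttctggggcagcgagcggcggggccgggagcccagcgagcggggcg
The next pair carries the NF-kappaB site in capitals. Cxcl1 (a neutrophil chemokine) lies at chr5:90890995-90891294 and Il6 (interleukin 6) at chr5:30012864-30013163, both on the plus strand. In Cxcl1 the capitals cover 2 overlapping matches of the same site.
Cxcl1: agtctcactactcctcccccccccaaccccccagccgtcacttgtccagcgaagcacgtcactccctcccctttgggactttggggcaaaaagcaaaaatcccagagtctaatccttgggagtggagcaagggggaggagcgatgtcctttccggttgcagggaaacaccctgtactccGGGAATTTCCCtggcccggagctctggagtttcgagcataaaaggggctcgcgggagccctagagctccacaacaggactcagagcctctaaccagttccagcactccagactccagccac
Il6: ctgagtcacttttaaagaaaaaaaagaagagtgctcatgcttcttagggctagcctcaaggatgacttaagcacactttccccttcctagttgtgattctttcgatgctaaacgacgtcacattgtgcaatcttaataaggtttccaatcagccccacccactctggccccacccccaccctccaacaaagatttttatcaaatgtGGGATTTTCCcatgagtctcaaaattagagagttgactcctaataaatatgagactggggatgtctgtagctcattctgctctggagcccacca
The third pair carries metal response elements (MRE, TGCACNC or TGCGCNC) in capitals. Mt2 (metallothionein) lies at chr8:94172368-94172667 and Slc30a1 (a zinc exporter) at chr1:191906531-191906830, both on the plus strand, with 4 and 2 matches.
Mt2: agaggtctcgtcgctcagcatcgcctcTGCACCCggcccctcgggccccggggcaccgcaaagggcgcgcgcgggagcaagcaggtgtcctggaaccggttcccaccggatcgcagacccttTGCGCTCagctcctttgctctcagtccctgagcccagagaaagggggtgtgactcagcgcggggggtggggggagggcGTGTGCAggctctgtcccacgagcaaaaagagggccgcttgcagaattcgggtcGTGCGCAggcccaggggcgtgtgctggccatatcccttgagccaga
Slc30a1: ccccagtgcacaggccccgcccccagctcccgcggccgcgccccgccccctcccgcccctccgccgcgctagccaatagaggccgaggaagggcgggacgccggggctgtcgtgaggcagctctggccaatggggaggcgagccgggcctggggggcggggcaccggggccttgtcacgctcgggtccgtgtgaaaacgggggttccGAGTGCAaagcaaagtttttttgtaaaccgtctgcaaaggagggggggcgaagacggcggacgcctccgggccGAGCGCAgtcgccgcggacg
Promoter windows were found for 171 of the 221 higher genes and for 6926 of the genes tested, and motifs were searched on both strands. The CArG box was in 7 of the 171 (4.09%) and in 1.63% of all genes tested, the same share as over all 32851 RefSeq windows. The NF-kappaB site was in 22.2% against 12.1% of genes tested and 8.46% of all windows. The AP-1 site (TGACTCA or TGAGTCA) was in 8.77% against 4.1% and 5.2%, and the MRE in 49.1% against 41.9% and 25.7%. The CRE (TGACGTCA) was in 4.09% against 3.97% and 1.79%. NF-kappaB matches can overlap each other. These shares describe letters in a window, a gene with several windows counts once if any matches, and no test was made.

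Immediate-early genes that are not DNA-binding factors followed. Of 28 tested (35 listed), 13 were higher and none was lower, with a median of 0.94 log2; with array medians subtracted 11 were higher. Btg2, an antiproliferative cofactor of mRNA deadenylation, rose from 95.3, 108 and 115 to 1038, 1005 and 1366 (log2 change 3.41 ± 0.14, limma adjusted p = 1e-05). Ier3 rose by 2.62 ± 0.12, Phlda1 by 2.74 ± 0.10 and Trib1, a pseudokinase, by 2.63 ± 0.12. Zfp36 encodes tristetraprolin, which binds AU-rich transcripts and speeds their decay. It read 84.3, 83.4 and 87.1 in untreated cells and 418, 454 and 549 in 2F cells (2.47 ± 0.11, limma adjusted p = 1.4e-05). Ptgs2, the inducible cyclooxygenase, was higher on both probe sets, by 1.39 on the brighter and by 2.72 on the dimmer. These are different sequences of 1 gene, and their changes differed.

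Feedback inhibitors of MAP kinase and receptor signalling gave 4 increases. Of 19 tested (24 listed), 4 were higher and none lower (median 0.36), the same 4 counted with array medians subtracted. Dusp5 rose from 234, 258 and 245 to 1309, 1169 and 1284 (log2 change 2.35 ± 0.08, limma adjusted p = 7.1e-06). Errfi1, an inhibitor of the EGF receptor, rose by 2.14 ± 0.09, Dusp6 by 1.24 ± 0.15 and Spry4 by 1.19 ± 0.15. Spry4 was dim in untreated cells (27.4 to 38.1). Dusp1, the MAP kinase phosphatase best known as an immediate-early gene, read 517, 620 and 637 against 607, 607 and 675 (0.09 ± 0.10, adjusted p = 0.53), and its change was -0.05 with array medians subtracted. Socs3, an inhibitor of cytokine receptor signalling, changed by 0.19 ± 0.12 (limma adjusted p = 0.28).

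Secreted signals formed the next group. Of 18 cytokines, chemokines and growth factors tested (31 listed, 8 with values but too dim), 9 were higher and none lower (median 0.99). Cxcl1 read 123, 144 and 155 in untreated cells and 1701, 2117 and 2311 in 2F cells (log2 change 3.86 ± 0.14, limma adjusted p = 7.1e-06). Ccl2, a monocyte chemokine, rose from 340, 328 and 368 to 3270, 3266 and 2974 (3.20 ± 0.08, adjusted p = 3.5e-06). Ereg, an EGF receptor ligand, rose from 186, 245 and 216 to 2297, 2139 and 2108 (3.35 ± 0.11, adjusted p = 6.4e-06). Hbegf, another ligand of that receptor, rose by 2.99 ± 0.11.

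The interleukin 6 family cytokines Lif and Il6 were near background in untreated cells. Lif read 13.0, 7.99 and 6.34 before and 210, 193 and 220 in 2F cells (log2 change 4.58 ± 0.24, limma adjusted p = 2.7e-05). Il6 read 7.67, 10.8 and 11.7 before and 184, 219 and 211 after (4.37 ± 0.16, adjusted p = 7.9e-06). Both stood under an intensity of 32 in the untreated arrays, where the size of a fold depends on the background correction. Il6 ranged from 15.6 to 271 across the total RNA arrays of another experiment, with 500 µM 4sU for 30 min.

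Saa3, an acute-phase serum amyloid, is in none of the lists and was among the largest increases. It read 180, 196 and 183 in untreated cells and 3232, 2960 and 2828 in 2F cells (log2 change 4.01 ± 0.09, limma adjusted p = 2.8e-06). Across the total RNA arrays of the 30 min experiment with 500 µM 4sU, Saa3 ranged from 164 to 3345. That range takes in every untreated and every 2F value. Such spread between arrays of the same dose and time is not part of the p-value here. Its source was not tested. In the NF-kappaB list, 3 of 10 tested (16 listed) were higher and none lower (median 0.47), under either scaling. Nfkbiz, a nuclear co-regulator of cytokine genes, read 368, 391.84 and 348 before and 1673, 2076 and 2103 after (2.39 ± 0.11, adjusted p = 1.5e-05). Nfkbia, the inhibitor that holds NF-kappaB in the cytoplasm, rose from 831, 877 and 937 to 2884, 2842 and 3026 (1.73 ± 0.08, adjusted p = 1.6e-05). Relb rose by 1.41 ± 0.12. Nfkbiz has another probe set that read -0.62, unlike its brightest.

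The Id genes, dominant-negative partners of bHLH factors and classical BMP targets, rose together, all 4 of them. Id1 read 102, 121 and 161 in untreated cells and 1646, 1499 and 1494 in 2F cells (log2 change 3.62 ± 0.16, limma adjusted p = 1.4e-05). Id3 rose from 161, 202 and 199 to 1769, 1664 and 1568 (3.16 ± 0.11, adjusted p = 7.1e-06). Id4 rose from 27.0, 55.3 and 36.3 to 469, 420 and 449 (3.56 ± 0.23, adjusted p = 8.2e-05), and Id2 by 1.78 ± 0.07. Snai1, a repressor of epithelial genes, rose from 155, 90.9 and 56.6 to 1233, 1141 and 1107 (3.64 ± 0.32, adjusted p = 3e-04). Its untreated arrays spread widely, and the 2F arrays lay above all of them. With Klf10, these made 6 of 15 TGF-beta and BMP targets tested (20 listed) that were higher, none lower (median 0.71), the same count under both other scalings.

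SRF and YAP, a pair of regulators that respond to growth factors and tension, share many targets. Of 27 tested (34 listed), 5 were higher and none lower (median 0.25), 4 with array medians subtracted. Ccn1, a matricellular protein, rose from 1255, 1120 and 1237 to 7229, 7035 and 7501 (log2 change 2.59 ± 0.08, limma adjusted p = 5.3e-06). F3, tissue factor, rose by 2.45 ± 0.11 and Thbs1, thrombospondin 1, by 1.99 ± 0.09. Myl9, a myosin light chain, rose by 1.47 ± 0.13 from a low level of 41.2 to 56.4. Ccn2, the relative of Ccn1, changed by 0.97 ± 0.08, just under the 2-fold line, and by 1.01 without untreated replicate 3. In the matrix and integrin list, 4 of 49 tested (81 listed) were higher and none lower (median 0.26). Besides Thbs1 these were the collagen Col12a1 (2.33 ± 0.38), the fibronectin receptor chain Itga5 (2.01 ± 0.19) and the laminin chain Lama4 (1.18 ± 0.12). These 3 passed in the fit of the 6 arrays and not when all total RNA arrays shared the spread.

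Zinc and redox genes held members at both ends of the scale. Of 15 oxidative and metal stress genes tested (19 listed), 5 were higher and 1 lower (median 0.34). Mt2 read 338, 299.95 and 393 in untreated cells and 3229, 2854 and 2713 in 2F cells (log2 change 3.10 ± 0.12, limma adjusted p = 9e-06), and Mt1 rose by 1.64 ± 0.12. Slc30a1, which exports zinc, was near background before, at 7.74, 27.7 and 14.0, and read 280, 266 and 241 after (4.18 ± 0.40, adjusted p = 0.00044). Hmox1, heme oxygenase 1, rose by 1.67 ± 0.14. The member that fell was Txnip, described with the decreases.

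Clock and glucocorticoid-responsive genes were also among the increases. Of 13 tested (20 listed), 5 were higher and none lower (median 0.72), with 4 higher after array medians were subtracted. Per1, a core clock repressor, read 34.2, 39.5 and 31.5 before and 117, 115 and 145 after (log2 change 1.84 ± 0.13, limma adjusted p = 1e-04). Klf9 rose by 1.33 ± 0.12, and the clock output factors Tef and Dbp by 1.36 ± 0.13 and 1.31 ± 0.07. Of the p53 targets, Btg2 and the death receptor Fas (1.2 ± 0.08) were higher among 16 tested (22 listed). The median was -0.01 and none was lower. Tef, Dbp, Fas, Ypel3 and Myl9 lost their call when all total RNA arrays shared the spread, and Tef, Dbp, Fas, Ypel3 and Spry4 lost it on the log2(value + 32) scale.

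Decreases were fewer and smaller. Txnip, which inhibits thioredoxin and glucose uptake and is repressed by growth factors, read 849, 795 and 781 in untreated cells and 107, 147 and 122 in 2F cells. That is a 6.49-fold fall (log2 change -2.70 ± 0.12, limma adjusted p = 1.4e-05), and its other probe set fell by the same 2.70. Ccng2, an atypical cyclin induced by FoxO factors, went from 252, 301 and 249.01 to 119, 95.4 and 119 (-1.27 ± 0.12, adjusted p = 0.00048). They were the 2 decreases among 20 FoxO and growth factor repressed genes tested (24 listed), where Ypel3 rose by 1.21 ± 0.12 and the median was -0.01.

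Msln, Dpysl3, Alcam and Map1b were among the other decreases. Msln, mesothelin, a surface glycoprotein, read 1143, 945 and 1337 before and 258, 271 and 239 after (log2 change -2.15 ± 0.13, limma adjusted p = 6.5e-05). Across the 30 min total RNA arrays Msln ranged from 158 to 1402, which takes in every untreated and every 2F value. Dpysl3, a cytoskeletal regulator, went from 952, 862 and 976 to 314, 337 and 305 (-1.54 ± 0.09, adjusted p = 3.8e-05). Alcam, an adhesion molecule, fell by 1.13 on the log2 scale, and Map1b, a microtubule-associated protein, by 1.36. Map1b had another probe set at -0.24, so its decrease was seen on 1 of 2 probe sets. Msln, Map1b, Itgbl1 and Alcam were called in the 6-array fit and not when all total RNA arrays shared the spread.

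Fbxo5, Ccnf and G2e3, known as regulators of the cell cycle, were also among the decreases. Fbxo5, also called Emi1, the inhibitor of the anaphase-promoting complex, went from 961, 963 and 1032 to 277, 278 and 300 (log2 change -1.79 ± 0.08, limma adjusted p = 1.3e-05). Ccnf, cyclin F, went from 289, 286 and 289 to 119, 123.0 and 129 (-1.22 ± 0.07, adjusted p = 5.8e-05), and G2e3, a G2/M ubiquitin ligase, from 293, 240.4 and 232 to 103, 78.1 and 113. Other probe sets of G2e3 (-0.85 and -0.28) were not called, nor was that of Ccng2 (-0.88). Of the 31 mitosis genes tested (32 listed) none was called, yet all 31 changes were below 0, with a median of -0.35 (30 of 31 and -0.37 under quantile normalization), and 23 passed adjusted p alone, all of them lower. Kif11, the spindle kinesin, stood nearest the line at -0.97 ± 0.09, and it crossed at -1.02 without untreated replicate 3 or without 2F replicate 3, and under both other scalings. Of 35 G1/S and replication genes tested (38 listed), none was called, and 7 passed adjusted p alone, all lower (median -0.16). Of all 8386 genes tested, 10.9% were lower and 13.9% higher by adjusted p alone, and 4026 changes were below 0.

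**Figure D2:**
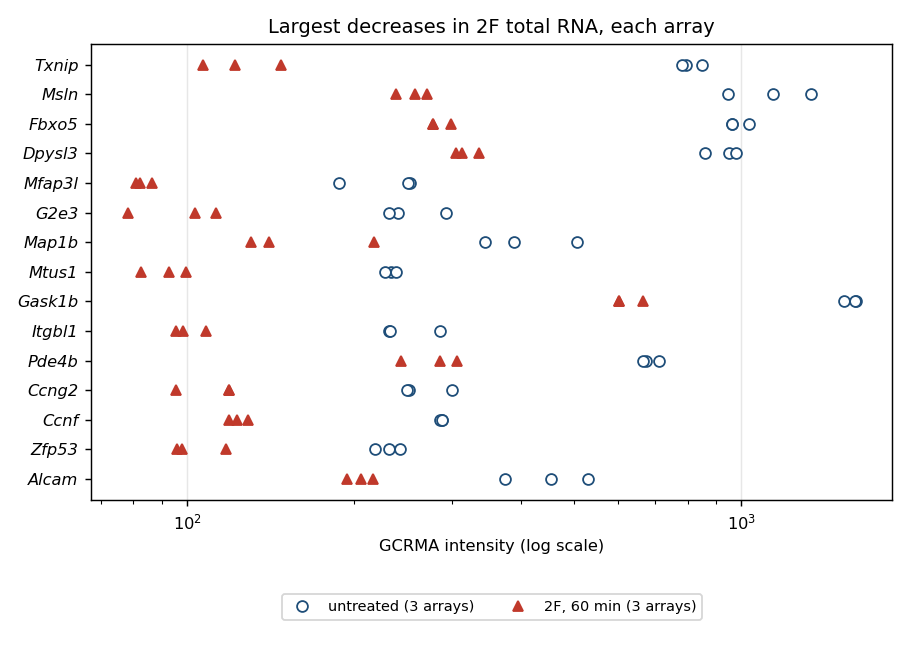
GCRMA intensity (log axis) of the 15 largest decreases in each of the 3 untreated arrays (open circles) and the 3 arrays of 2F total RNA (triangles), from Txnip (-2.70) to Alcam (-1.13). They were named by the same rule as the increases, with a mean log2 of at least 7 and no overlap. All but Txnip, Msln and Fbxo5 are under 3-fold, against 8.56-fold or more for each of the 15 largest increases.

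Other lists moved little at the 2-fold line. Over all genes tested, 2.64% were higher and 0.477% lower at that line, and 13.9% and 10.9% by adjusted p alone. The integrated stress and unfolded protein response had 27 genes tested (28 listed), with 1 lower and none higher (median -0.26), and 13 lower and 2 higher by adjusted p alone. Trib3, a target of ATF4, went from 386, 488 and 580 to 249.45, 236 and 227 (log2 change -1.01 ± 0.15, limma adjusted p = 0.0029). Its call was lost without untreated replicate 2 (-0.99), untreated replicate 3 (-0.87) or 2F replicate 3 (-0.98). Nupr1 (-0.85 ± 0.08), Chac1 (-0.79 ± 0.11) and Ddit3, which encodes CHOP (-0.76 ± 0.08), were lower without reaching 2-fold. Sterol and fatty acid synthesis had no call among 23 tested (28 listed), and 12 passed adjusted p alone, all lower (median -0.26), Mvd (-0.72 ± 0.09) and Lss (-0.60 ± 0.12) among them. Of 192 Zfp and Zbtb zinc finger genes tested (334 listed), 2 were higher and 3 lower (median -0.13), and 53 were lower and 18 higher by adjusted p alone.

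Housekeeping machinery gave no call in the limma fit, where 2.64% of all genes were higher and 0.477% lower. By adjusted p alone 13.9% of all genes were higher and 10.9% lower. None of 43 ribosomal protein, 73 oxidative phosphorylation, 35 proteasome and 27 glycolysis and citrate cycle genes tested passed, with 3, 2, 0 and 3 higher and 0, 6, 3 and 1 lower by adjusted p alone. Their medians lay between -0.07 and 0.04, and from -0.22 to -0.11 with array medians subtracted, where all genes had a median of -0.14. Heat shock genes had 1 call of 14 tested (19 listed), Dnajb4 at 1.02, which fell under the line without untreated replicate 1 (0.91), without 2F replicate 2 (0.99), without 2F replicate 3 and under both other scalings. Interferon response, small nucleolar RNA hosts, splicing kinases and regulators of apoptosis had no call among 6, 14, 19 and 15 tested. By adjusted p alone 1, 4, 4 and 2 of these were higher and 2, 0, 2 and 1 lower. At the shares over all genes, lists this short can easily hold no call, so nothing is read from its absence. In the interferon list, 12 of the 18 genes with values were too dim to test. Actb, the reference, read 14115, 14242 and 14323 against 13572, 12210 and 12949 (-0.14 ± 0.08, limma adjusted p = 0.21).

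**Figure D3:**
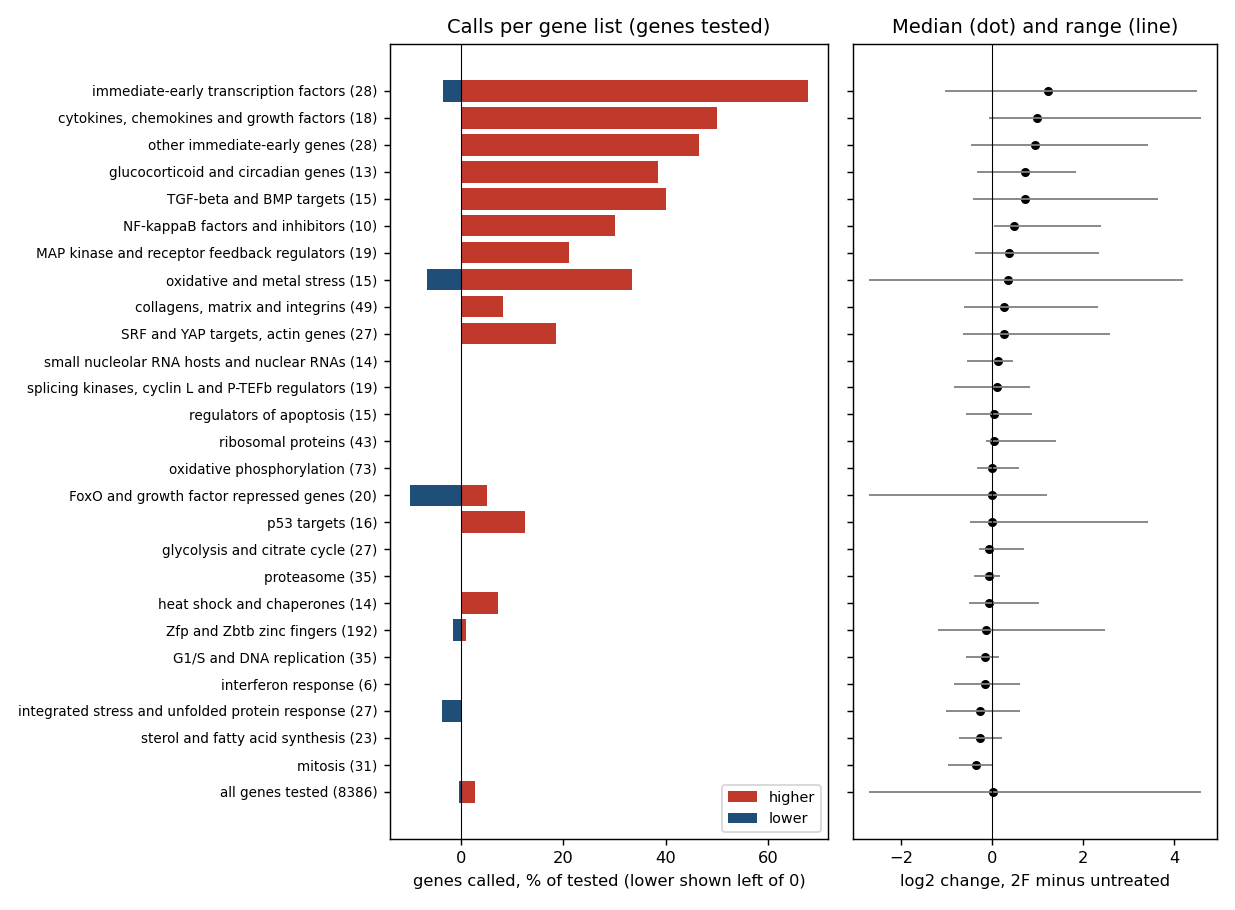
Left, the percentage of tested genes called higher (right of 0) or lower (left of 0) per gene list, with the number tested in brackets. Right, the median log2 change (dot) and range (line). The lists run by median from immediate-early transcription factors (1.23) to mitosis (-0.35), and the bottom line holds all 8386 genes, of which 2.64% were higher and 0.477% lower. The lists were chosen with earlier results of these data known.

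Some probe sets called lower disagreed with another probe set of their gene. Of 146 called lower, 67 (45.9%) had a brighter tested probe set of the same gene, beside 214 of 498 called higher (43%) and 36.7% of all tested. The brighter one was called in the same direction for 13 of the 67 and for 92 of the 214. For the other 54 probe sets called lower, the median change was -1.18 on the called and -0.24 on the brighter probe set, with median untreated intensities of 118 and 546. In Dtl, an adaptor of a replication-linked ubiquitin ligase, the called probe set changed by -2.54 and the brighter one by 0.14. In Rsrc2 the pair read -2.41 and 0.02, and in Pabpc1, a poly(A)-binding protein, -1.84 and -0.12. Probe sets with no single gene symbol made up 26.7% of lower calls, 12.7% of higher calls and 9.38% of all tested.

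Those dimmer probe sets often had high ratios of new to total RNA in another experiment. Of 53 measured there, 45 had a higher ratio of newly transcribed to total RNA at 30 min than the brighter probe set of their gene, with medians of 2.01 and 0.43 log2. Dtl read 4.75 against 0.99 and Pabpc1 3.98 against -0.41. For higher calls of the same kind (122 probe sets whose brighter relative was not called), the medians were 0.92 and 0.21, with 45 of 83 above. What these probe sets detect was not tested.

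**Figure D4:**
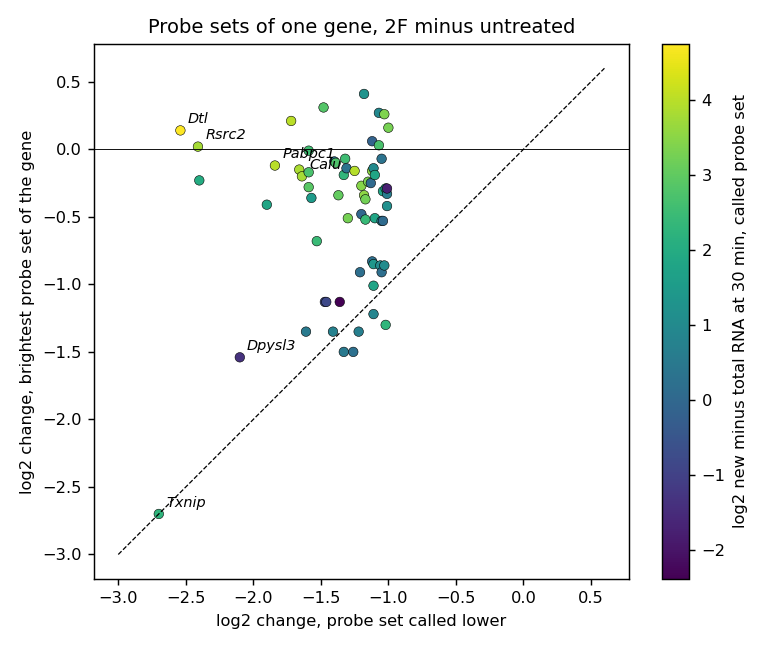
Log2 change (2F minus untreated) of each of the 67 dimmer probe sets called lower (x axis) against the brightest probe set of its gene (y axis), coloured by the log2 ratio of newly transcribed to total RNA at 30 min, with equality dashed. Txnip lies on the line at -2.70, and Dtl, Rsrc2 and Pabpc1 lie near 0 on the y axis.

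The called genes were then read on arrays that share none with these groups. The first readout was newly transcribed over total RNA after 30 min with 500 µM 4sU, 9 arrays each, in which 13.7% of all genes tested were higher (13.3% with each set of close arrays averaged). Of 206 risen genes measured there, 108 (52.4%) were higher in new RNA, against 12.6% of the genes tested in both comparisons. Of 39 fallen genes, 17 (43.6%) were. The 9 total arrays fell into 3 sets of 3, with r of 0.988 to 0.995 within and 0.919 to 0.969 between sets, so p-values over 9 arrays are too small. With each set averaged, the shares were 47.1%, 38.5% and 12.2%. Btg2 (3.23), Trib1 (3.27) and Dusp5 (3.02) had log2 ratios over 3 there. Saa3 was not called (-1.65 ± 0.79, limma adjusted p = 0.063, and 0.29 with sets averaged). The arrays are separate, yet these cells had also been labelled with 4sU. Their total RNA held Fos at 4.92 log2 above untreated cells, so the ratios were not read in unchanged cells.

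The second readout was 2 h against 1 h of actinomycin D at 5 µg/ml, which blocks transcription so that unstable transcripts decline, and 6.72% of all genes were lower at 2 h. Of 159 risen genes measured, 31 (19.5%) were lower at 2 h, and of 33 fallen genes 11 (33.3%), against 6.81% of the genes tested in both. Those measured were 159 of the 221 risen, 33 of the 40 fallen and 7932 of all 8386 genes. The others were too dim on the actinomycin D arrays, Fos, Junb, Zfp36, Trib1, Dusp5 and Myc among them. A larger part of the risen genes was therefore missing, and the shares do not cover it. Among risen genes, Ccn1 (-3.69), Id3 (-2.68) and Dusp6 (-2.24) were lower at 2 h, in log2. Among fallen genes Ccnf (-2.70) and Fbxo5 (-2.20) were. Saa3 (0.16), Mt2 (-0.13) and Dpysl3 (0.16) were not called. These readouts describe the genes in the cells of their own experiments, and their part in the 60 min change was not tested.

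The same genes can be set beside the other total RNA of labelled cells, measured against the same 3 untreated arrays. Because those arrays are shared, the values are given side by side with no count of agreement. The first 60 min experiment had the same 4sU dose and time, and the 30 min experiment had 500 µM. The first 60 min arrays were less alike, with a median SD of 0.398 log2. Its replicate 2 stood apart, with an Actb 3′ minus 5′ signal of 3.08 log2, and values are therefore given with and without it.

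Transcripts differed in how their values were ordered over these experiments. Fos changed by 4.92 log2 at 30 min, 3.61 in the first 60 min experiment (3.65 without replicate 2) and 3.51 in 2F. Zfp36 gave 3.40, 2.03 (2.39) and 2.47, and Egr1 2.52, 1.95 (1.96) and 1.84. In these 3 the 30 min value was the highest of the 3 experiments. Ccl2 gave 1.12, 2.83 (3.37) and 3.20, Ereg 1.74, 3.20 (3.28) and 3.35, and Klf10 0.15, 2.62 (2.41) and 2.08. In these the 30 min value was the lowest. Txnip gave -1.36, -2.72 (-3.16) and -2.70. Some genes called in 2F were not called in the first 60 min experiment, with or without its replicate 2. Among them, Myc gave 0.58, -0.46 (-0.09) and 1.13, and Col12a1 1.16, -0.21 (0.45) and 2.33. Of the decreases, Gask1b gave -0.79, -0.11 (-0.3) and -1.35, and Mfap3l -1.16, 0.22 (-0.28) and -1.46. Dose, time and experiment differ between the 30 min and 60 min values, and no test of the difference was made here.

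**Figure D5:**
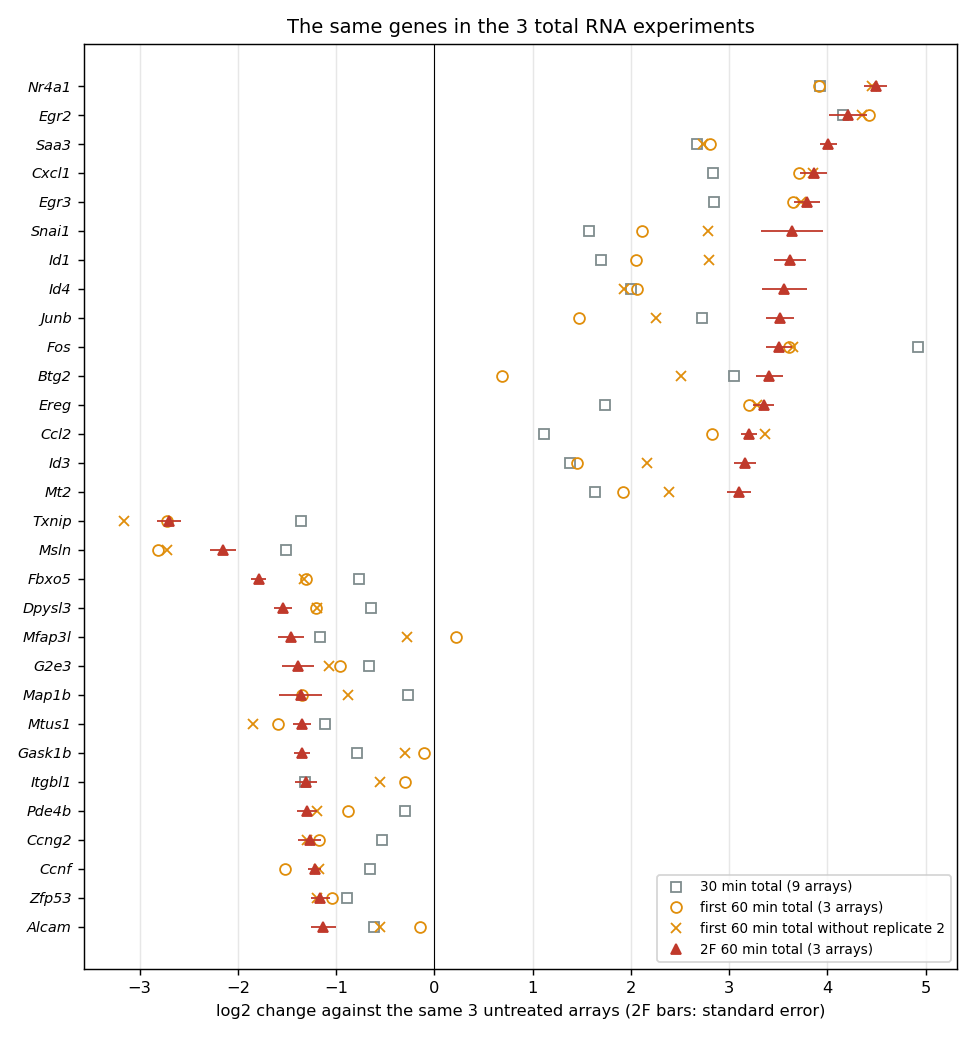
Log2 change against the same 3 untreated arrays for the 15 largest increases and 15 largest decreases of 2F total RNA, named by the same rule (triangles, bars are standard errors), beside 30 min total RNA (squares) and first 60 min total RNA with (circles) and without (crosses) its replicate 2. Fos stands at 4.92 at 30 min and 3.51 in 2F, and Id4 at 2.06 in the first 60 min experiment and 3.56 in 2F.

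The direct test of 2F against the first 60 min total RNA, in which the untreated arrays play no part, called 86 probe sets higher in 2F (0.552%) and 17 lower (0.109%). The number of calls in this test depended strongly on which arrays were in the fit. Without first 60 min replicate 2 it called 484 (3.09%) and 83 (0.531%), without its replicate 1 it called 1946 and 819, and without its replicate 3 or any one 2F array limma called 0 in either direction. In those fits the probe sets with unadjusted p under 0.05 numbered 1097 to 1872 higher and 735 to 1496 lower. Of the 221 risen genes, 7 were higher in 2F than in the first 60 min experiment (Abca1, Cdsn, Epha2, Hp, Id4, Saa3 and Ypel3) and none was lower, where 0.24% and 0.024% of all genes tested were. The risen genes were chosen for high values on these same 2F arrays, which favours this direction, so nothing is read from their count. Of 36 fallen genes measured, 1 (Trib3) was higher in 2F. Without first 60 min replicate 2, 26 risen genes were higher, Myc and Thbs1 among them, and 1 (Grasp) was lower, with the same bias from the choice of genes, where 1.52% and 0.251% of all genes tested were. Of 36 fallen genes in that fit, 1 (Trib3) was higher and 3 (Dkk2, Gask1b and Mfap3l) were lower in 2F. For fallen genes the choice favours the lower direction.

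The genes named from that test were of several kinds. Id4 read 165, 189 and 127 in the first 60 min experiment (log2 difference of 2F 1.5 ± 0.19, limma adjusted p = 0.037) and Saa3 1272, 1468 and 1193 (1.2 ± 0.16, adjusted p = 0.038). Trib3 read 58.8, 27.9 and 36.5 there, below both 2F and untreated cells (2.60 ± 0.28, adjusted p = 0.031). Gpt2, an alanine aminotransferase, read 137.0, 45.8 and 64.6 there and 507, 490 and 457 in 2F (2.71 ± 0.39, adjusted p = 0.049). Cth, which makes cysteine, read 129, 120 and 144 there and 492.93, 486 and 459 in 2F (1.87 ± 0.15, adjusted p = 0.025). Untreated cells lay at 529, 659 and 776 for Gpt2 and at 631, 788 and 878 for Cth, so both experiments lay below them. In 2F neither gene met the 2-fold line against untreated cells (-0.42 ± 0.14 and -0.66 ± 0.13). For Rgs16, a regulator of G protein signalling, the direction was opposite, with 372, 515 and 432 in the first experiment and 119, 123 and 135 in 2F (-1.79 ± 0.18, adjusted p = 0.027).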

How the data were processed

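Per the labels, Trizol-extracted RNA of NIH-3T3 cells was prepared with Affymetrix one-cycle target labelling. The values the authors deposited are linear intensities. GCRMA is named for them in the submitters' processing notes, and its version is not given in the sources used here. Their log2 was taken. Of 31451 probe sets, 61 control probe sets were left out, and 25031 of the rest had 1 gene symbol (13232 genes), 690 several and 5669 none. Entrez identifiers matched RefSeq for 24934 of them and changed 0 symbols. The limma package 3.58.1 (lmFit and eBayes, under R 4.3.3) compared groups with group as the factor. On simulated data, 97% of probe sets changed by 1.5 log2, and 100% of those changed by 3 log2, were called in the 2F against untreated design and 53% and 91% in the 2F against first 60 min design. False calls numbered 0 in the former and 5 in the latter. Changes were planted only in probe sets with a mean at least 1 log2 above the limit for testing. The recovery of dimmer probe sets was not measured. The simulation gave both groups the same SD per probe set and independent errors. It thus lacks the unequal spread of the real groups (median SD 0.0758 log2 in 2F, 0.153 in untreated and 0.398 in first 60 min arrays) and any array-wide shift. The number of arrays limits the precision, and arrays carry no read depth.

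Genes named are the 15 largest called increases and decreases with no overlap, 1 symbol and a mean log2 of at least 7, up to 4 members per list with the largest change, Fos, Egr1, Myc and Actb, and the 5 largest calls in each direction between 2F and the first 60 min. Other members were named after their values were seen. The members and the 30 gene lists, written from general knowledge, were chosen with earlier results of these data known. Alternatives were other scalings, filters, a pseudocount of 32, all 24 total RNA arrays in the fit, a replicate block and leaving out each array. Averaging the 30 min arrays in sets and leaving out first 60 min replicate 2 were chosen after seeing the data.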

Additional observations from a re-analysis of the deposited data

Results flagged for a closer look

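The direct limma test of 2F against first 60 min total RNA called 20 genes higher and 2 lower in 2F, and the 10 named by rule are given as log2 differences. Higher in 2F were Gpt2 (2.71), Trib3 (2.60), the transcription factor Sp3 (2.52), Cth (1.87), Id4 (1.5), Ypel3 (1.33), the sodium pump subunit Atp1b1 (1.33) and Saa3 (1.2). Lower in 2F were Rgs16 (-1.79) and the flap endonuclease Fen1 (-1.12). Each passed with and without first 60 min replicate 2, and none passed without its replicate 3 or without any one 2F array. The replicates of the first 60 min experiment spread by a median SD of 0.398 log2 and its RNA integrity differed between arrays, with Actb 3′ minus 5′ signals of 0.773, 3.08 and 1.29 log2, and their part in these differences was not tested.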

How the results depend on the processing

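Against untreated cells, the counts of probe sets higher and lower (498 and 146) were 2615 and 1663 by adjusted p alone, 793 and 277 with no filter, 211 and 50 with a mean log2 of 7 or more, and 266 and 60 on log2(value + 32). With all total RNA arrays in the fit, 271 were higher and 98 lower. Quantile normalization gave 412 and 181, median subtraction 366 and 207. Leaving out 1 array gave 431 to 550 higher and 136 to 171 lower. Same-numbered arrays deviated from their group means with correlations of -0.0136, 0.0797 and -0.0554, so the numbers were not taken as pairs, and the replicate block gave 500 and 148.

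Of 86 gene results, 14 lost their call with all total RNA arrays in the fit, 9 on log2(value + 32), 2 under median subtraction and 1 under quantile normalization. The sign turned for Dusp1 (-0.05, median subtraction) and Sp3 (-0.32 to 0.21 on leaving out 1 array, above 0 without untreated replicate 3), neither called.

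For 2F against first 60 min total RNA (86 and 17), quantile normalization gave 80 and 35, median subtraction 63 and 28, no filter 314 and 58. With the replicate block limma called 0 and 0, with 2481 and 1370 at an unadjusted p under 0.05, and leaving out 1 array gave 0 to 1946 higher and 0 to 819 lower. Causes were not tested.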
